A study of Mus musculus with 24 samples.

Results

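E7 grafts were 6 of the 24 libraries of the series and were chosen by their labels alone: ear skin of K14E7 donors on C57BL/6 recipients, 3 libraries at day 14 and 3 at day 28 after grafting. In K14E7 mice the keratin 14 promoter, active in basal keratinocytes, drives the E7 oncogene of human papillomavirus 16, so that the epithelium of the donor skin carries the transgene and the recipient does not. Grafts of other donors on the same recipient strain stood beside them, each with 3 libraries at each day. C57 grafts came from C57BL/6 donors without the transgene, and CD1dKOxE7 grafts came from donors labelled CD1d-/-xK14E7, which carry E7 and lack CD1d by their label. Neither donor nor recipient age was given for grafts in the sources used here, and no label ties a library to an animal, so that the p-values below measure the spread between these libraries, which may be technical. By the run codes in the labels C57 and E7 grafts shared a lane, and CD1dKOxE7 grafts were on another lane of that flow cell.

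The question asked of the 6 libraries is how grafted E7 skin differs at day 28 from day 14. A skin graft is a healing wound: keratinocytes at its edge proliferate and make stress keratins and small cornified proteins, and the dermis is rebuilt by activated fibroblasts. Hair follicles of the graft run through their own cycle of growth, regression and rest, and make the keratins of the hair shaft in the growth phase only. E7 binds the retinoblastoma protein and releases E2F factors, so that E7 epidermis keeps proliferating in its upper layers.

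E7 graft libraries held 6726995 to 9937396 counts. Levels are CPM, a gene's count scaled to a common library total after TMM normalization, and log2 fold changes (day 28 against day 14, ± SE) and adjusted p-values are from edgeR's quasi-likelihood test. The transgene itself was read at 33.7, 40.4 and 38.6 CPM at day 14 and at 25.8, 34.4 and 27.2 CPM at day 28. These libraries overlapped and E7 was not called (-0.37 ± 0.27, adjusted p = 0.369), and it was at 0 in the 6 C57 grafts. Krt5, a keratin of basal keratinocytes and a check of the labelled tissue, stood between 4961 and 6421 CPM in the 6 libraries. On the first principal component of the E7 grafts (58.2% of the variance) the days were apart. On the second (15.1%) replicate 2 of day 14 lay at -39.1, with the other 5 libraries between -6.88 and 21.1.

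Of 16189 genes tested, 1243 rose (7.68%) and 1535 fell (9.48%) at an adjusted p under 0.05. The libraries of the days did not overlap for 39.6% of the genes tested. A log2 fold change above 0 was seen in 8309 genes tested, and below 0 in 7879. At least 4-fold changes numbered 85 among the genes that rose and 200 among those that fell. Counts hung on single libraries: without replicate 1 or 2 of day 14, or replicate 1 or 2 of day 28, between 481 and 608 genes rose and between 730 and 932 fell. These are whole-graft libraries, in which fewer cells of a type and less RNA per cell cannot be told apart.

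**Figure D1:**
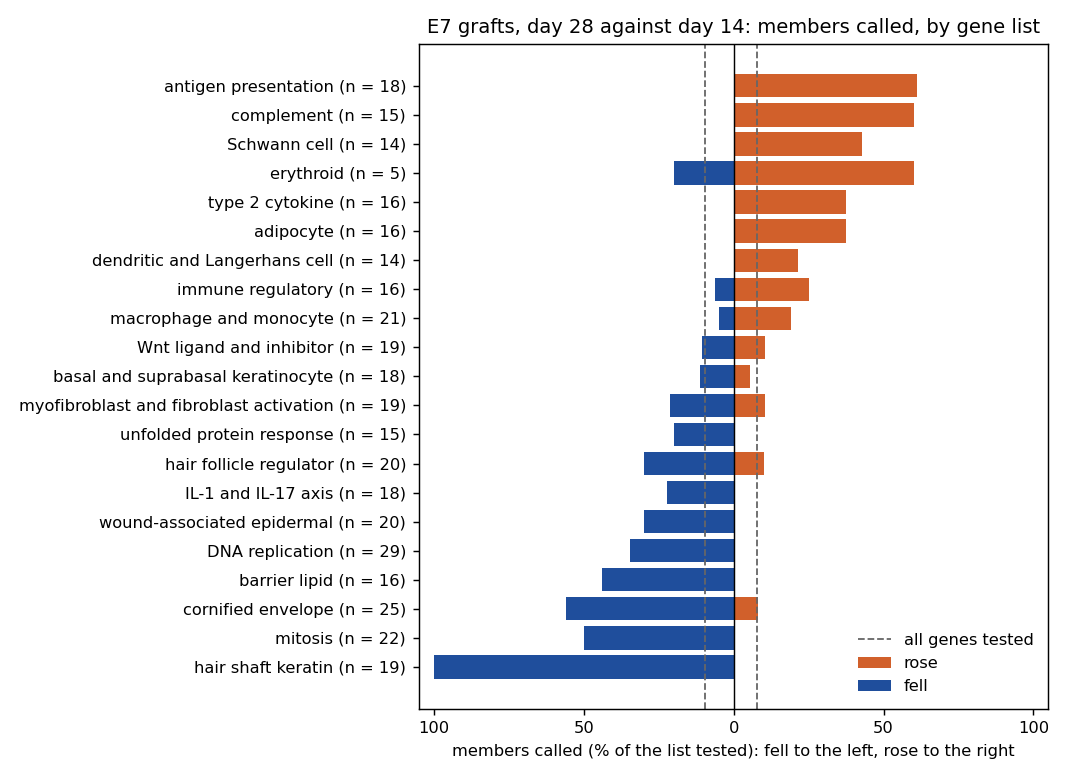
Share of each gene list that was called in E7 grafts between day 14 and day 28, for the 21 lists with at least 3 members called. Bars to the left are members that fell and bars to the right members that rose, in percent of the members tested (n), and the dashed lines mark all genes tested (9.48% fell, 7.68% rose). The hair shaft keratin list fell whole, and antigen presentation and complement had the longest bars on the side that rose together with the 5 erythroid genes.

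Hair shaft genes were far lower at day 28. All 19 hair shaft genes tested fell, with a median log2 fold change of -3.94 against 0.00966 for all genes tested, the lowest median of the 44 lists. Krt33b (Entrez 16671, chromosome 11, 100023634 to 100029868, GRCm38), an acidic keratin of the hair cortex, stood at 280, 69.0 and 271 CPM at day 14 and at 8.30, 10.2 and 9.03 CPM at day 28. It fell 22.5-fold (-4.49 ± 0.64, adjusted p = 0.0012). Krt31, its neighbour in the type I cluster, went from 238, 52.8 and 237 CPM to 7.04, 8.52 and 11.8 CPM (-4.26 ± 0.66, adjusted p = 0.0017). Their basic partners fell with them: Krt81 from 458, 110 and 454 CPM to 14.0, 20.3 and 18.8 CPM (-4.27 ± 0.63) and Krt83 from 340, 81.7 and 340 CPM to 11.4, 16.6 and 13.4 CPM (-4.20 ± 0.64). Krt25, a keratin of the inner root sheath that moulds the growing shaft, went from 1620, 387 and 1116 CPM to 64.6, 89.1 and 163 CPM (-3.30 ± 0.61, adjusted p = 0.004). In each of these genes replicate 2 of day 14 was the low library of its day, and it still stood above all 3 libraries of day 28. The hair shaft genes all fell without any 1 of the 6 libraries as well.

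**Figure D2:**
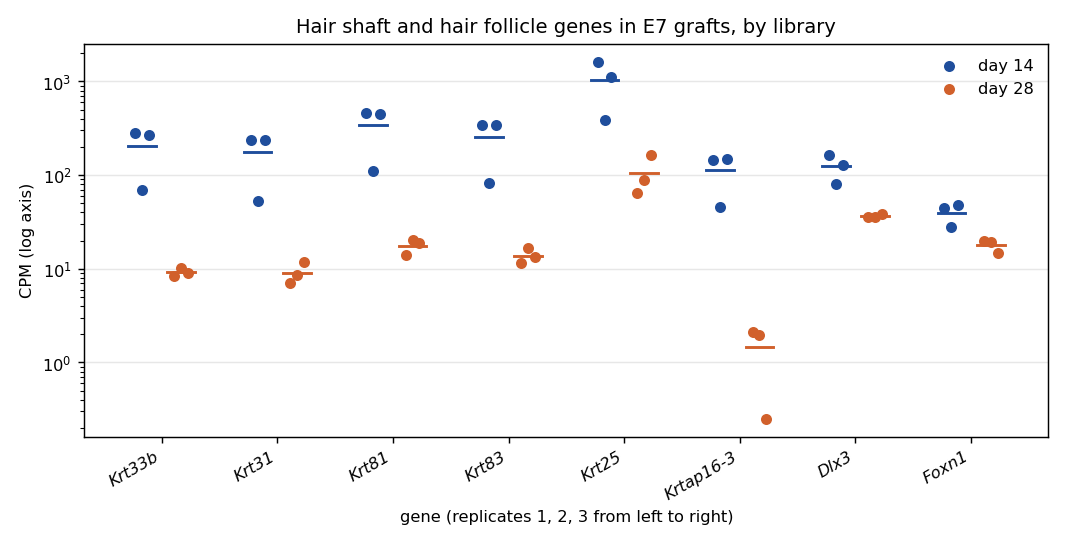
CPM (log axis) of hair shaft and hair follicle genes in the 6 E7 grafts; each point is a library, the line is the mean of 3, blue is day 14 and orange is day 28. Replicate 2 of day 14 (middle blue point) is the lowest of its day in every gene shown and lies above the day 28 libraries in every gene shown.

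Genes of the keratin-associated proteins, which cross-link the hair keratins, fell with them. Of 53 Krtap genes tested 52 fell (median -4.01), and Krtap20-2 was not called (adjusted p = 0.301). This count overlaps that of the hair shaft list, which also holds Krtap3-1, Krtap3-2, Krtap8-1 and Krtap11-1. The family was picked after its values were seen, and reads of its near-identical copies may be split among them. Krtap16-3 went from 147, 45.8 and 150 CPM to 2.14, 1.99 and 0.251 CPM, a 78.3-fold fall (-6.29 ± 0.86, adjusted p = 0.0011). Krtap19-4 went from 43.8, 15.0 and 44.1 CPM to 0.377, 0.142 and 0.251 CPM (-6.95 ± 0.97). Of the 10 largest falls called with no overlap and at least 1 CPM, 8 were Krtap genes, among them Krtap19-1, Krtap19-2, Krtap19-3, Krtap19-5, Krtap14 and Krtap15 (-5.25 to -6.81). The others were Sct, the gene of the hormone secretin, and Crisp1, of a cysteine-rich secreted protein. Crisp1 stood at 5.38, 2.07 and 4.94 CPM at day 14 and had 0 counts at day 28, at least 30.4-fold lower against 3 counts over the group.

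Hair shaft and Krtap genes share letters before their starts that the labels did not choose. The 250 bases before the start were read from RefSeq windows of GRCm38.p6, which covered 14 of the 19 hair shaft genes and 48 of the 53 Krtap genes. The TATA box letters TATAAA, searched on both strands, were in 85.7% of the hair shaft windows and 79.2% of the Krtap windows, against 7.8% of the windows of all genes tested. CTTTGAA, a core that LEF1 and the other TCF factors bind, was in 35.7% and 14.6% against 3.4%, and TAATTA, a homeodomain core of the kind DLX3 binds, in 35.7% and 20.8% against 2.85%. These shares rest on few windows: CTTTGAA was in 5 of 14 hair shaft and 7 of 48 Krtap windows, and TAATTA in 5 and 10. Near-identical genes of a family count as separate windows. The windows printed below were picked, and hold CTTTGAA more often than the windows of their lists. A match is a run of letters, not a site shown to be bound. Windows of members with large falls are printed 5′ to 3′ on the gene's strand to show where the letters lie, with matches to the 3 motifs on either strand in capitals.
Krt33b, chr11:100029869-100030118, minus strand: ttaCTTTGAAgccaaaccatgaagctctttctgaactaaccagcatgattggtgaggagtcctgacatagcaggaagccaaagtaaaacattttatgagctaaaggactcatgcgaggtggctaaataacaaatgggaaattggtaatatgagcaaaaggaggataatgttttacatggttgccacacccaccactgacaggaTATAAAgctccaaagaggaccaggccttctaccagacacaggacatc
Krt31, chr11:100050552-100050801, minus strand: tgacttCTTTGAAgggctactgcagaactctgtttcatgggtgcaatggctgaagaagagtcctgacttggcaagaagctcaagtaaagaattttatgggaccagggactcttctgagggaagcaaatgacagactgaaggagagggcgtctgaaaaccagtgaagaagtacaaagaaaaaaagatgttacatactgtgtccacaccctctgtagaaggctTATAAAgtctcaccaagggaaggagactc
Krt25, chr11:99322952-99323201, minus strand: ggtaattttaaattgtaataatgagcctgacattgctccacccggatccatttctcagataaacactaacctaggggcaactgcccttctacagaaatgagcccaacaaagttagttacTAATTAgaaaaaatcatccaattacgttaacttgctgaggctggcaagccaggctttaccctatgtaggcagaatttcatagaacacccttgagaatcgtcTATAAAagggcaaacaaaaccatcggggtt
Krtap16-3, chr16:88962874-88963123, minus strand: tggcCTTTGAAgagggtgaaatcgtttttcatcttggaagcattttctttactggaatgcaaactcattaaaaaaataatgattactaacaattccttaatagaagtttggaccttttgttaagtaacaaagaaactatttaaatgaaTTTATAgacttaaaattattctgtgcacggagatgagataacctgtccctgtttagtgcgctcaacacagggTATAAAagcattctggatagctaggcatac
TATAAA begins 30 bases before the start in Krt25 and Krtap16-3, 29 bases before it in Krt31 and 47 bases before it in Krt33b. CTTTGAA lies at the far end of 3 of the windows, 247, 244 and 246 bases before the start of Krt33b, Krt31 and Krtap16-3.

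Regulators of the hair follicle moved with the shaft in part. Of 20 tested, 6 fell and 2 rose (median -0.45). Dlx3, a homeobox factor of the hair matrix and shaft, went from 165, 80.2 and 129 CPM to 35.8, 35.4 and 38.2 CPM (-1.77 ± 0.27, adjusted p = 0.0014). Foxn1, the factor missing in nude mice, went from 44.1, 27.9 and 47.5 CPM to 19.6, 19.3 and 14.9 CPM (-1.15 ± 0.22, adjusted p = 0.0036). Krt75, a keratin of the companion layer, went from 286.1, 82.9 and 275 CPM to 52.4, 63.4 and 52.4 CPM (-1.94 ± 0.38), a call lost when only the 2 groups were fitted (adjusted p = 0.0639). The shaft regulators Msx2 (-2.07 ± 0.44) and Hoxc13 (-1.64 ± 0.39), named after their values were seen, fell too. Both calls were lost when only the 2 groups were fitted (adjusted p = 0.0534 and 0.0836), and that of Hoxc13 also without replicate 1 of day 14 or of day 28 (0.0573 the higher). Lef1, a Wnt-responsive factor of the hair matrix, stood at 12.5, 2.84 and 12.3 CPM and at 2.52, 4.26 and 3.89 CPM. It was not called (adjusted p = 0.0682), and was called without the low replicate 2 of day 14 (adjusted p = 0.00747).

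The 2 follicle regulators that rose were Nfatc1 and Cd34. Nfatc1, a factor of quiescent bulge stem cells, rose from 53.5, 44.2 and 57.9 CPM to 78.5, 85.2 and 86.7 CPM (0.69 ± 0.10, adjusted p = 0.0012), and kept its call without each library. Cd34, a surface marker of bulge cells and of vessels, rose by 0.84 ± 0.21, a call lost without replicate 1 or 2 of day 14 or replicate 3 of day 28 (adjusted p up to 0.0645). Sox9 and Lhx2, named after their values were seen, had log2 fold changes of 0.01 ± 0.19 and 0.01 ± 0.35. Among 19 Wnt ligands and inhibitors, a list not limited to the follicle, 2 rose and 2 fell, shares near those of all genes tested (7.68% and 9.48%). Wnt3 (0.68 ± 0.17; adjusted p = 0.0799 without replicate 2 of day 14) and Sfrp4 (1.67 ± 0.46; lost without replicate 1 or 2 of either day, adjusted p up to 0.0994, and with the replicate block, 0.0874) rose. Wnt11 went from 21.5, 10.8 and 19.6 CPM to 7.54, 8.24 and 7.78 CPM (-1.13 ± 0.26, adjusted p = 0.0089) and Wnt5a from 66.4, 79.8 and 51.6 CPM to 33.95, 30.7 and 40.4 CPM (-0.91 ± 0.18, adjusted p = 0.0044). Slc4a1, the anion exchanger listed as an erythroid gene, fell while the globins rose. It stood at 6.80, 1.96 and 5.86 CPM and at 0.252, 0.142 and 1.00 CPM, with replicate 2 of day 14 low as in the hair genes (-3.29 ± 0.64, adjusted p = 0.0042).

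Hair genes fell in C57 grafts as well. All 19 hair shaft genes fell there between the days (median -3.20; 14.2% of all genes tested fell in C57 grafts and 8.4% rose), and none differed between the donors in the test of the difference of day changes. The share of all genes tested called higher in E7 than in C57 grafts in that test was 0.148%, and the share called lower 0.0185%. For Krt33b the day change was -3.60 ± 0.58 in C57 grafts, and the difference between donors was -0.89 ± 0.81 (adjusted p = 0.786).

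Across all 16189 genes the day changes of E7 and C57 grafts, which share no library, had a Pearson r of 0.739 and a Spearman rho of 0.66; this is across genes, which are not replicates. Of the 2778 genes called in E7 grafts 94.9% had the same sign in C57 grafts, against 74.4% of all genes tested. The test of the difference called 24 genes higher and 3 lower in E7 than in C57 grafts, with 1508 genes at an unadjusted p under 0.05. The number called higher ranged from 10 (without replicate 3 of the C57 grafts at day 28) to 55 (without replicate 3 of the E7 grafts at day 14), and DESeq2 called 85 higher and 67 lower.

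**Figure D3:**
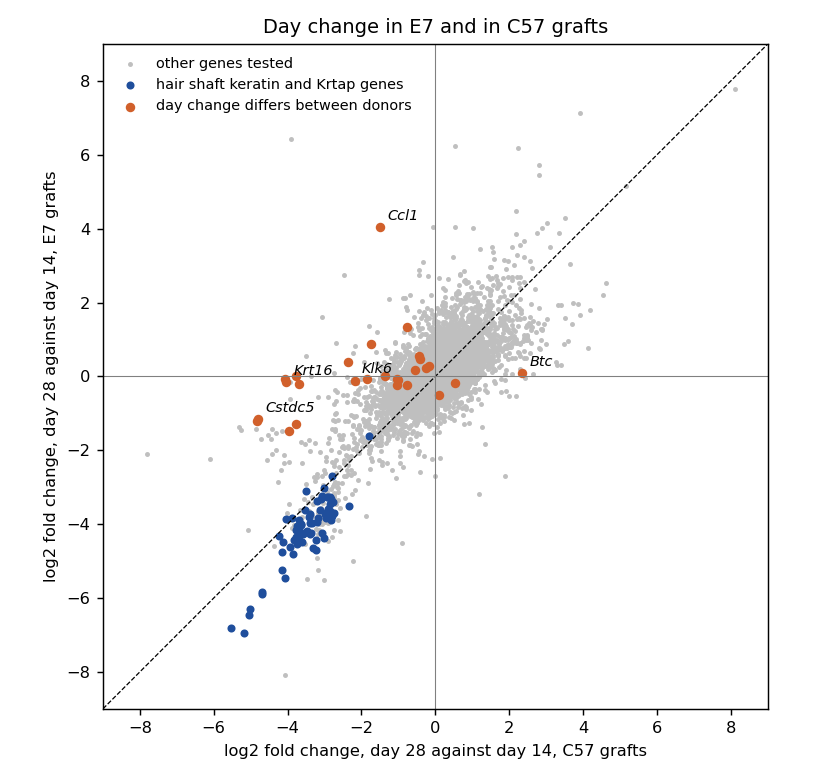
Log2 fold change between day 14 and day 28 in C57 grafts (horizontal) and E7 grafts (vertical), 1 point per gene tested; the dashed line marks equal changes. Hair shaft keratin and Krtap genes (blue) lie low in both donors, and the 27 genes whose day change differed between donors (orange) include Krt16 and Klk6, near 0 in E7 grafts and below 0 in C57 grafts, and Btc, near 0 in E7 grafts and above 0 in C57 grafts.

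The wound keratin Krt16 had a day change that differed between donors. Krt16 (Entrez 16666, chromosome 11, 100246091 to 100248902), made by keratinocytes of wounds and other stressed epidermis, stood at 4103, 3352 and 3561 CPM at day 14 in E7 grafts and at 3310, 3420 and 3168 CPM at day 28. It was not called between the days (-0.15 ± 0.28, adjusted p = 0.738). In C57 grafts it went from 1241, 619 and 967 CPM to 83.5, 52.6 and 35.4 CPM (-4.04 ± 0.32, adjusted p = 6.55e-06). The day change was 3.88 ± 0.41 higher in E7 than in C57 grafts (adjusted p = 0.00086), and this call held without each of the 12 libraries (adjusted p at most 0.00632). In CD1dKOxE7 grafts, which also carry E7, Krt16 stood at 5497 and 4160 CPM (means of day 14 and day 28). Its day change was not called as different between E7 and CD1dKOxE7 grafts (adjusted p = 0.731). Krt6a, a partner of Krt16, stood at 3956, 1652 and 1869 CPM and at 1772, 1448 and 2081 CPM in E7 grafts and was not called (-0.50 ± 0.38, adjusted p = 0.386). It fell in C57 grafts (-2.38 ± 0.40), and the difference between donors was 1.89 ± 0.54 (adjusted p = 0.215).

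Of the other genes called higher than in C57 grafts, 4 are given here, none of them called between the days in E7 grafts. They do not stand for the rest: among all 24 called higher, 6 rose and 5 fell in E7 grafts. Klk6, a secreted serine protease named after its values were seen, was at 464.7 ± 45.8 CPM (mean ± SD, n = 3) at day 14 and 429.1 ± 42.8 CPM at day 28 in E7 grafts, and fell from 102 ± 21.0 to 22.5 ± 1.97 CPM in C57 grafts (difference 2.07 ± 0.19, adjusted p = 0.00016). Lpo, the gene of lactoperoxidase, stood at 66.1, 83.7 and 73.8 CPM and at 64.1, 70.9 and 57.8 CPM in E7 grafts, and at 9.76, 6.23 and 8.44 CPM and 0.624, 0.978 and 0.278 CPM in C57 grafts. Its day change was 3.46 ± 0.53 higher in E7 grafts (adjusted p = 0.0146), a call lost without replicate 1 or 3 of the C57 grafts at day 28 (0.0733 at most) and with the replicate block (0.104). Slc5a8, a monocarboxylate transporter gene (1.77 ± 0.23, adjusted p = 0.0045), and Prss27, a serine protease gene (1.36 ± 0.20, adjusted p = 0.0095), were also higher, were named after their values were seen, and kept their calls without each library. In CD1dKOxE7 grafts Klk6 stood at 622 and 714 CPM (means of day 14 and day 28) and Lpo at 58.4 and 80.1 CPM. Slc5a8 stood there at 43.1 and 50.6 CPM and Prss27 at 50.4 and 55.5 CPM. None of these 4 day changes was called as different between E7 and CD1dKOxE7 grafts (adjusted p 0.188 to 0.648).

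Stefin A genes and their relatives, which encode inhibitors of cysteine proteases in cornifying cells, were lower at day 28 in both donors. Of 7 tested 5 fell in E7 grafts (median -1.21, against -4.08 in C57 grafts), 4 had a day change called higher in E7 than in C57 grafts, and reads of these near-identical genes may be split among them. Cstdc5 stood at 956, 1489 and 633 CPM and at 505, 434 and 446 CPM in E7 grafts (-1.15 ± 0.33, adjusted p = 0.0275), a call lost without any 1 library but replicate 3 of day 14 (adjusted p up to 0.125), when only the 2 groups were fitted (0.0569) and with no filter on low counts (0.0531). In C57 grafts Cstdc5 went from 424, 272 and 366 CPM to 19.7, 9.92 and 7.21 CPM. The difference between donors was 3.66 ± 0.49 (adjusted p = 0.0087), held without each library. The neighbouring Cstdc6 differed by 3.63 ± 0.56 (adjusted p = 0.0159) and Stfa2 by 4.01 ± 0.71 (adjusted p = 0.0383). Single libraries ended both calls, with an adjusted p of up to 0.074 for Cstdc6 (without replicate 3 of the C57 grafts at day 28) and 0.108 for Stfa2 (without replicate 2 of that group), and 8 of the 12 left-out libraries did so for Stfa2. With no filter on low counts Stfa2 was not called either (0.0742). In CD1dKOxE7 grafts Cstdc5 stood at 1329 and 744 CPM (means of day 14 and day 28). The day changes of Cstdc5, Cstdc6 and Stfa2 were not called as different between E7 and CD1dKOxE7 grafts (adjusted p at least 0.669).

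Genes called lower than in C57 grafts were 3. Btc, which encodes the EGF receptor ligand betacellulin, stood at 9.81, 11.8 and 11.0 CPM and at 14.6, 11.4 and 8.65 CPM in E7 grafts, and at 9.76, 10.6 and 8.33 CPM and 49.5, 51.0 and 45.6 CPM in C57 grafts. Its libraries overlapped between the days in E7 grafts and were far apart in C57 grafts, and the difference of -2.27 ± 0.26 (adjusted p = 0.0013) held without each library. In CD1dKOxE7 grafts Btc stood at 13.4 and 9.33 CPM (means of day 14 and day 28). Its day change was not called as different between E7 and CD1dKOxE7 grafts (adjusted p = 0.155). Elovl1, a fatty acid elongase of the skin barrier (-0.70 ± 0.13, adjusted p = 0.0482), and Ralgapa2 (-0.61 ± 0.11, adjusted p = 0.039), a GTPase activator gene, were called lower too. They lost their calls without 10 and 11 of the 12 libraries (adjusted p up to 0.151 and 0.118) and with the replicate block (0.0911 and 0.152). Ccl1, a chemokine gene, rose in E7 grafts from at most 0.109 CPM to 0.88, 1.14 and 0.752 CPM (adjusted p = 0.0025) and differed from C57 grafts (adjusted p = 0.0348), a call lost without 8 of the 12 libraries (adjusted p up to 0.105) and with the replicate block (0.0767).

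**Figure D4:**
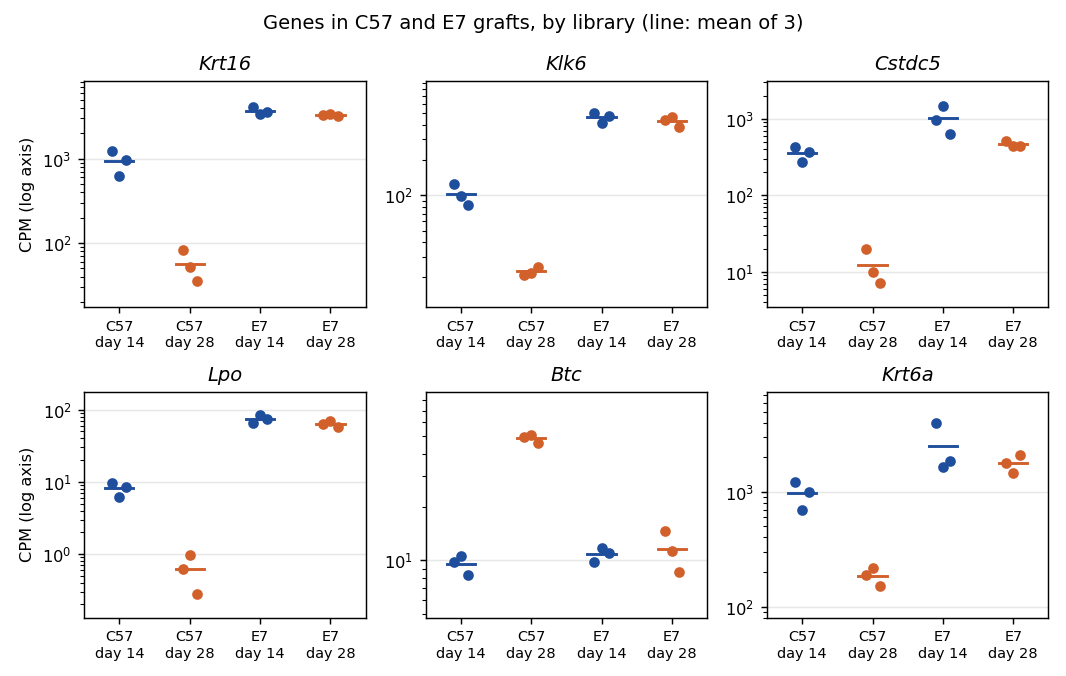
CPM (log axis) of 6 genes in C57 and E7 grafts; each point is a library, the line is the mean of 3, blue is day 14 and orange is day 28. Krt16, Klk6 and Lpo stay level in E7 grafts and drop in C57 grafts, Cstdc5 drops in both and further in C57 grafts, Btc rises in C57 grafts and overlaps in E7 grafts, and Krt6a is shown as the partner of Krt16 whose difference between donors was not called.

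The wound-associated list as a whole held 6 members of 20 that fell and none that rose (median -0.56), against 9 of 20 that fell in C57 grafts (median -1.76). The small proline-rich protein gene Sprr2h, an envelope precursor, went from 311, 242 and 211 CPM to 52.9, 55.5 and 45.9 CPM (-2.31 ± 0.20, adjusted p = 0.00012). Stfa3 went from 622, 989 and 470 CPM to 340, 248 and 263 CPM (-1.29 ± 0.29, adjusted p = 0.0094). Sprr2d fell as well (-2.86 ± 0.56; adjusted p = 0.0522 when only the 2 groups were fitted), with Stfa1 (-1.44 ± 0.34; 0.0567 without replicate 2 of day 14). So did Ereg, the gene of the growth factor epiregulin, from 256, 235 and 234 CPM to 92.4, 90.1 and 114 CPM (-1.29 ± 0.33), a call lost without replicate 1 of day 14 or replicate 1 or 2 of day 28 (0.0657 at most). S100a8, of the alarmin calprotectin, ranged from 14.4 to 116 CPM at day 14 and from 8.28 to 17.5 CPM at day 28 and was not called (adjusted p = 0.0593). The list count was 4 without replicate 1 of day 14 or replicate 1 or 2 of day 28.

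Cornified envelope genes, of the protein shell of dead keratinocytes, fell more often than they rose: 14 of 25 fell and 2 rose (median -0.72). Those that rose were Flg2, a filaggrin relative, from 261, 226 and 269 CPM to 439, 516 and 490 CPM (0.93 ± 0.19, adjusted p = 0.0051), and Lce1m (0.92 ± 0.25), whose call was lost without replicate 1 or 3 of day 14 or replicate 2 of day 28 (adjusted p up to 0.0872) and with the replicate block (0.0858). Flg, of filaggrin itself, went from 4611, 5935 and 3170 CPM to 2067, 1975 and 1708 CPM (-1.25 ± 0.25, adjusted p = 0.0051). Casp14, a protease that processes filaggrin, went from 1201, 1552 and 650 CPM to 298, 304 and 254 CPM (-1.99 ± 0.25, adjusted p = 0.00064). Cdsn, of the adhesive protein corneodesmosin, went from 1421, 1253 and 1104 CPM to 702, 770 and 734 CPM (-0.78 ± 0.11, adjusted p = 0.00075), and Crct1 from 679, 750 and 550 CPM to 376, 408 and 366 CPM (-0.78 ± 0.11). Lce3c, a late cornified envelope gene of injured epidermis, went from 288.3, 214 and 154 CPM to 97.1, 60.5 and 77.0 CPM (-1.48 ± 0.25, adjusted p = 0.0021). Lor, the gene of loricrin and the main envelope protein, was not called (-0.32 ± 0.23, adjusted p = 0.337). In the basal and suprabasal keratinocyte list 2 of 18 genes fell (11.1%) and 1 rose (5.56%), with 9 above and 9 below 0 (median 0.00434). These shares are near the 9.48% and 7.68% of all genes tested. Dsc1, a desmosomal cadherin of the upper layers, fell by 0.97 ± 0.20 (adjusted p = 0.0061), from 1346, 1294 and 902 CPM to 568, 573 and 667 CPM. Krt1, the main suprabasal keratin, was highest in replicate 2 of day 14 (40230 CPM, against 14880 to 27430 CPM in the other 5 libraries), and fell by 0.91 ± 0.26 (adjusted p = 0.0281). That call held only without replicate 3 of day 14 among the 6 left-out libraries (adjusted p up to 0.143) and was lost with the replicate block (0.0752). Krt77, another suprabasal keratin gene, rose from 149.5, 54.3 and 253 CPM to 1161, 1330 and 1540 CPM (3.14 ± 0.89, adjusted p = 0.0285). Its call too held only without replicate 3 of day 14 (adjusted p up to 0.0999) and was lost with the replicate block (0.052).

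Barrier lipid genes fell beside the envelope genes, 7 of 16 with none that rose (median -0.26). Pnpla1, an enzyme that makes the acylceramides of the barrier, went from 139, 140 and 113 CPM to 80.2, 82.2 and 76.6 CPM (-0.71 ± 0.12, adjusted p = 0.0022). Cers3, the ceramide synthase for very long chains, went from 215, 210 and 180 CPM to 115, 117 and 123 CPM (-0.77 ± 0.15, adjusted p = 0.0035). Ugcg, of glucosylceramide synthesis (-0.37 ± 0.07), and Degs2, of phytoceramide synthesis (-0.91 ± 0.19), fell and kept their calls without each library. Elovl4 was not called (-0.12 ± 0.29). Without replicate 1 of day 14 or replicate 1 or 2 of day 28 the list count was 4. Cholesterol synthesis genes fell in 2 of 20 and none rose (median -0.17). That share of 10% is near the 9.48% of all genes tested. Stard4, a cholesterol carrier, was 1 of those that fell (-0.70 ± 0.14). All 16 sebaceous gland genes tested had a log2 fold change above 0 (median 0.61). Those that rose were 2 (12.5%, against 7.68% of all genes tested), Mgst1 (0.64 ± 0.16) and Plin2 (0.83 ± 0.21). Both calls were lost without replicate 1 or 2 of day 14 or replicate 1 of day 28 (adjusted p up to 0.0745 and 0.0826).

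Cell cycle transcripts were lower at day 28. Mki67, made in cycling cells, stood at 640, 653 and 590 CPM at day 14 and at 377, 436 and 435 CPM at day 28 (-0.59 ± 0.16, adjusted p = 0.0186). The call was lost without replicate 1 or 2 of day 14 or replicate 1 of day 28 (adjusted p 0.0621, 0.0674 and 0.0771). Of 22 mitosis genes 11 fell and all 22 had a log2 fold change below 0 (median -0.44), and of 29 DNA replication genes 10 fell and none rose (median -0.32). E2f8, a repressor induced by E2F, went from 70.5, 68.1 and 58.6 CPM to 38.7, 41.0 and 38.0 CPM (-0.74 ± 0.16, adjusted p = 0.0061). Fen1, the flap endonuclease of lagging-strand synthesis, went from 59.6, 58.8 and 55.7 CPM to 37.7, 36.9 and 41.5 CPM (-0.58 ± 0.14, adjusted p = 0.0099). The spindle checkpoint kinase gene Bub1b (-0.49 ± 0.10, adjusted p = 0.0053) and the kinetochore motor gene Cenpe (-0.63 ± 0.15, adjusted p = 0.011) fell and, like E2f8 and Fen1, kept their calls without each library. The helicase gene Mcm2 fell by 0.49 ± 0.15, a call lost without replicate 1 or 2 of either day (adjusted p up to 0.141) with the replicate block (0.0968) and with no filter on low counts (0.0533). Left-out libraries also cut the list counts, to 2 to 4 DNA replication genes without replicate 1 or 2 of either day, and to 2 to 4 mitosis genes without replicate 1 or 2 of day 14 or replicate 1 of day 28 (7 without replicate 3 of day 28).

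In C57 grafts 21 of the 22 mitosis genes and 26 of the 29 DNA replication genes fell (medians -1.02 and -0.77). For Mki67 the day change was -1.13 ± 0.16 in C57 grafts, and the difference between donors was 0.54 ± 0.22 (adjusted p = 0.467). Of the 2 lists only Birc5, which encodes the mitotic protein survivin, differed between donors: it stood at 45.4 and 38.5 CPM (means) in E7 grafts and at 26.7 and 12.9 CPM in C57 grafts, a difference of 0.81 (adjusted p = 0.0158) that was lost without 2 of the 12 libraries (adjusted p up to 0.0582). Cdkn2a, of the inhibitors p16 and ARF, stood at 4.11, 3.16 and 3.91 CPM and at 7.17, 6.39 and 5.02 CPM in E7 grafts and was not called (0.74 ± 0.36, adjusted p = 0.167).

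Antigen presentation genes were higher at day 28. Of 18 tested 11 rose and none fell (median 0.66), and all 18 had a log2 fold change above 0. B2m, the light chain of class I molecules, stood at 997, 1052 and 1582 CPM at day 14 and at 2106, 2039 and 2098 CPM at day 28 (0.78 ± 0.15, adjusted p = 0.0035). The class I heavy chain genes H2-K1, from 1063, 1182 and 1577 CPM to 2419, 2179 and 2040 CPM (0.80 ± 0.13), and H2-D1 (0.60 ± 0.12) rose too. Of the class II genes, H2-Ab1 went from 188, 281 and 336 CPM to 494, 547 and 581 CPM (1.01 ± 0.20, adjusted p = 0.0046) and H2-Aa from 194, 287.3 and 312 CPM to 442, 466 and 554 CPM (0.88 ± 0.20, adjusted p = 0.0093). Replicate 3 of day 14 was the highest library of its day for each of these 5 genes. These 5 calls held without each library, and the list count was 7 without replicate 1 of day 14. In C57 grafts 10 of the 18 rose (median 0.55), and none of the list differed between donors.

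Complement genes, of the innate cascade of serum and tissue, rose with them: 9 of 15 rose and none fell (median 1.13), against 2 of 15 in C57 grafts (median 0.28), with none of the list called as different between the donors. C7, a part of the membrane attack complex, went from 0.316, 0 and 0.23 CPM to 2.14, 2.56 and 1.505 CPM (3.51 ± 0.62, adjusted p = 0.0023). C4b, an early component of the classical pathway, went from 87.3, 125 and 242 CPM to 431, 483 and 492 CPM (1.63 ± 0.40, adjusted p = 0.0161). Its call was lost without replicate 1 or 2 of day 14 (adjusted p = 0.0691 and 0.0651) and when only the 2 groups were fitted (0.0506). C2 (0.65 ± 0.17), Serping1, the C1 inhibitor gene (1.01 ± 0.27), and C1qa (1.13 ± 0.32) rose, and lost their calls without replicate 1 or 2 of day 14 or replicate 2 of day 28 (adjusted p up to 0.0845, 0.094 and 0.117), the last 2 also without replicate 3 of day 28 and C1qa without replicate 1 of day 28. The list count was 1 without replicate 1 or without replicate 2 of day 14, and between 2 and 5 without a library of day 28. In most of these genes replicate 3 of day 14 was the library of its day nearest to day 28, as in C4b.

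**Figure D5:**
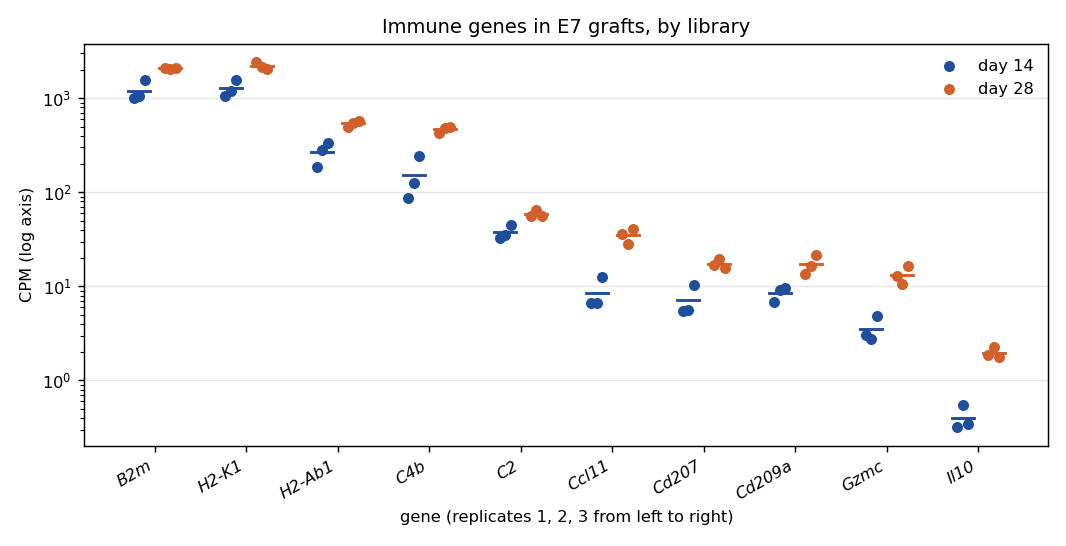
CPM (log axis) of 10 immune genes in the 6 E7 grafts; each point is a library, the line is the mean of 3, blue is day 14 and orange is day 28. All day 28 libraries lie above all day 14 libraries in each gene shown, and replicate 3 (right blue point) is the highest of day 14 in each gene shown but Il10.

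Genes of type 2 immunity, the arm of eosinophils and alternatively activated macrophages, rose in part: 6 of 16 tested rose and none fell (median 1.25). Ccl11, the eosinophil attractant eotaxin, went from 6.64, 6.65 and 12.5 CPM to 36.5, 28.4 and 41.1 CPM (2.02 ± 0.31, adjusted p = 0.0014). Ccl24, a second eotaxin gene, went from 0.474, 0 and 1.26 CPM to 4.90, 7.39 and 3.26 CPM (3.12 ± 0.61, adjusted p = 0.0042). Chil4, a chitinase-like gene of alternatively activated macrophages and epithelium, went from 0.316, 0.109 and 0.69 CPM to 10.9, 8.52 and 80.8 CPM (6.44 ± 1.23, adjusted p = 0.0058). Replicate 3 of day 28 stood far above the others for Chil4, and the call was lost when only the 2 groups were fitted (adjusted p = 0.0567). Retnla, a secreted product of such macrophages, stood at 1.58, 0.218 and 27.9 CPM and at 116, 197 and 36.5 CPM, a call lost without replicate 1 or 2 of either day (adjusted p up to 0.114), when only the 2 groups were fitted (0.138), with the replicate block (0.118) and with no filter on low counts (0.0582). Mgl2, a lectin of dermal macrophages and dendritic cells, rose (1.76 ± 0.44), a call lost without replicate 1 or 2 of day 14 (adjusted p = 0.0703 and 0.0647). Without either of these libraries the list count was 3. Il4 and Il5 were too low to test.

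Langerhans and dendritic cell genes rose in 3 of 14. Cd207, of langerin, the lectin of Langerhans cells, went from 5.54, 5.67 and 10.5 CPM to 16.7, 19.6 and 15.8 CPM (1.25 ± 0.25, adjusted p = 0.0042), and Cd209a, of dermal dendritic cells, from 6.80, 9.16 and 9.65 CPM to 13.6, 16.3 and 21.7 CPM (1.00 ± 0.18, adjusted p = 0.0028). Batf3, a factor of cross-presenting dendritic cells, rose by 1.51 ± 0.40, a call lost without replicate 1 or 2 of either day (adjusted p up to 0.0721). Of 21 macrophage and monocyte genes 4 rose (Cd14, C1qa, C1qc and Timd4). Csf1r, the receptor that macrophages need, was not called (0.81 ± 0.31, adjusted p = 0.0825). The count that rose was 1 or 0 without any 1 library but replicate 3 of day 14.

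T cell and interferon lists had no member called. Of 18 T cell genes and 34 interferon response genes edgeR called none. At an unadjusted edgeR p under 0.05, 1 T cell gene was lower, and 3 interferon genes were lower and 1 higher. Of all 16189 genes tested 5266 passed that unadjusted threshold, in either direction. DESeq2 called no T cell gene, and 1 interferon gene that fell. Cd3e, of the T cell receptor complex, stood at 3.00, 3.27 and 4.14 CPM and at 3.90, 4.40 and 5.64 CPM (adjusted p = 0.485), and Foxp3, of regulatory T cells, at 3.95, 4.69 and 6.09 CPM and 3.90, 5.11 and 6.14 CPM (adjusted p = 0.971). Ifng was at 0.327 to 1.26 CPM and at 0.376 to 0.754 CPM (adjusted p = 0.702), and Ido1 was not called (adjusted p = 0.610). Cxcl10, an interferon-induced chemokine, was at 63.4, 95.2 and 146 CPM and at 56.6, 51.0 and 37.4 CPM, with no overlap and no call (-1.07 ± 0.36, adjusted p = 0.0539). Cd1d1, which presents lipids to natural killer T cells, stood at 15.2, 14.2 and 16.8 CPM and at 26.2, 21.6 and 23.2 CPM and was not called (0.62 ± 0.31, adjusted p = 0.179), but was called when only the 2 groups were fitted (adjusted p = 0.018).

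Of 18 genes of the IL-1 and IL-17 axis 4 fell, Il1f5, Il1f6, Il1f8 and the beta-defensin gene Defb3, and none rose. Il1f6, of the alarmin IL-36 alpha, stood at 72.4, 155 and 50.8 CPM and at 36.7, 35.1 and 40.5 CPM (-1.31 ± 0.32, adjusted p = 0.0137), a call lost without replicate 2 of day 14 or replicate 1 or 2 of day 28 (adjusted p up to 0.0537), when only the 2 groups were fitted (0.117) and with the replicate block (0.0591). The calls of Il1f5, Il1f8 and Defb3 were lost with the block as well (0.0584, 0.0801 and 0.0715), under which the list count was 1. Without replicate 1 or 2 of either day the list count was 1 or 0. Trunk Hox genes, which mark skin of body origin, were checked because the donor skin is ear: of 21 tested edgeR and DESeq2 called none, with 5 higher at an unadjusted p under 0.05 (median 0.93). Among 12 melanocyte genes edgeR called none, 3 were lower at an unadjusted p under 0.05 and DESeq2 called 1 lower (median -1.06). These unadjusted counts stand against 5266 of all 16189 genes tested, in either direction.

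Single regulatory and cytotoxic genes rose. Il10, the gene of an anti-inflammatory cytokine, went from 0.316, 0.545 and 0.345 CPM to 1.89, 2.27 and 1.76 CPM (2.21 ± 0.47, adjusted p = 0.0061). Ikzf2, the factor Helios of regulatory T cells and other cells, went from 35.1, 37.2 and 49.2 CPM to 71.4, 65.9 and 78.4 CPM (0.83 ± 0.15, adjusted p = 0.0028). Gzmc, a granzyme gene of activated killer cells, went from 3.00, 2.73 and 4.83 CPM to 12.8, 10.5 and 16.4 CPM (1.90 ± 0.30, adjusted p = 0.0014). These 3 calls held without each library. In the cytotoxic list, which holds Gzmc, 2 of 17 genes rose (11.8%, against 7.68% of all genes tested), with 11 above and 6 below 0. In the regulatory list 4 of 16 genes rose, the others being Tnfrsf18, of the receptor GITR (0.55 ± 0.15), and Vsir, of the checkpoint protein VISTA (0.84 ± 0.24), and 1 fell. The calls of Tnfrsf18 and Vsir were lost without replicate 1 or 2 of day 14 or replicate 2 of day 28 (adjusted p up to 0.0871 and 0.104), that of Tnfrsf18 also when only the 2 groups were fitted (0.0989) and that of Vsir without replicate 1 or 3 of day 28. Arg1, arginase, which uses up arginine in alternatively activated macrophages and in wounded keratinocytes, went from 30.7, 55.4 and 12.9 CPM to 5.28, 8.24 and 6.90 CPM (-2.29 ± 0.71, adjusted p = 0.0417). That call held only without replicate 3 of day 14 among the left-out libraries (adjusted p up to 0.176), and was lost when only the 2 groups were fitted (0.063) or with no filter on low counts (0.0758).

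Of 19 genes of myofibroblasts and fibroblast activation 4 fell and 2 rose, with 9 above and 10 below 0. Lrrc15, a marker of activated fibroblasts, went from 285.6, 202 and 236 CPM to 43.2, 57.2 and 99.6 CPM (-1.85 ± 0.40, adjusted p = 0.008), and Ccn4, a matricellular Wnt target, from 23.2, 39.3 and 25.2 CPM to 9.93, 10.8 and 16.4 CPM (-1.24 ± 0.28, adjusted p = 0.0088). Cthrc1 and Adam12 also fell, and Thy1 and Tgfbi rose. The count that fell was 2 without replicate 2 of day 14 or replicate 2 of day 28. The calls of Cthrc1 and Adam12 were lost without replicate 2 of day 14 or replicate 1 or 2 of day 28 (adjusted p up to 0.093 and 0.108) and when only the 2 groups were fitted (0.0824 and 0.0937), that of Thy1 without 3 libraries (0.0857) and that of Tgfbi without any 1 of the 6 (0.12). With the replicate block Adam12 (0.078) and Tgfbi (0.0536) lost theirs too. Of 25 collagen and matrix genes 2 fell, Col12a1 and Tnc, a share of 8% that is near the 9.48% of all genes tested. Col12a1, a collagen laid on fibrils, fell by 1.51 ± 0.35 (adjusted p = 0.0502 without replicate 2 of day 14), and Tnc, of the wound matrix protein tenascin C, by 0.98 ± 0.25 (adjusted p up to 0.0703 without replicate 2 of day 14 or replicate 1 or 2 of day 28). Col1a1, the main dermal collagen, was not called (-0.51 ± 0.25, adjusted p = 0.165). The matrix protease and inhibitor list had 1 of 16 genes that rose (6.25%, against 7.68% of all genes tested) and none that fell. This gene was Adamts5, a protease of proteoglycans, which rose from 21.7, 17.1 and 24.8 CPM to 44.6, 57.4 and 50.9 CPM (1.27 ± 0.26, adjusted p = 0.006). Hypoxia and glycolysis genes fell in 2 of 15 (13.3%) and none rose, with 8 above and 7 below 0 (median 0.0049). Hk2, the inducible hexokinase of glycolysis, was 1 of those that fell, from 233, 186 and 174 CPM to 111, 110 and 109 CPM (-0.84 ± 0.14, adjusted p = 0.0018).

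Members of the Schwann cell and adipocyte lists and the haemoglobin genes rose, and no skeletal muscle gene was called. All 14 Schwann cell genes had a log2 fold change above 0 (median 0.66) and 6 rose. Pmp22, of peripheral myelin, went from 56.3, 54.2 and 75.2 CPM to 110, 113 and 139 CPM (0.96 ± 0.21, adjusted p = 0.0083). The list count was 1 without replicate 1 or 2 of day 14 and 2 without a library of day 28. All 16 adipocyte genes had a log2 fold change above 0 (median 1.56) and 6 rose. Their summed level was 362 to 679 CPM at day 14 and 1849, 914 and 867 CPM at day 28, replicate 1 of day 28 being the high library. Without that library none was called (1 without replicate 2 of day 28), nor without replicate 1 or 2 of day 14, nor when only the 2 groups were fitted. Adipoq, of the fat hormone adiponectin, stood at 9.65, 2.94 and 9.19 CPM and at 73.0, 19.3 and 19.9 CPM (2.40 ± 0.77, adjusted p = 0.0471; 0.241 without replicate 1 of day 28, 0.0781 with no filter on low counts). All 20 skeletal muscle genes had a log2 fold change above 0 (median 1.02) and edgeR called none (1 at an unadjusted p under 0.05, 1 by DESeq2), against 16 that rose in C57 grafts; the test of the difference between donors called none of them. Their summed level was lowest in replicate 2 of day 14 (271 CPM, against 1230 to 2311 CPM in the other 5 libraries). The 4 haemoglobin genes tested rose, Hba-a1 and Hba-a2 without each library left out in turn, and Hbb-bs and Hbb-b1 with calls lost without any 1 library but replicate 2 of day 28 (adjusted p up to 0.113 and 0.12) and with no filter on low counts (0.0536 and 0.0611). The haemoglobin family was picked after its values were seen. In the erythroid list, which also holds globin genes, 3 of 5 genes tested rose and 1, Slc4a1, fell. Hba-a1 went from 5.22, 5.67 and 3.68 CPM to 43.1, 12.8 and 39.0 CPM (2.71 ± 0.64, adjusted p = 0.0128). The part that blood in the tissue has in these levels was not tested.

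The 10 largest rises outside predicted genes mixed these themes. Adra2c, an adrenergic receptor gene, had 0 counts at day 14 and 1.13, 1.14 and 1.00 CPM at day 28, at least 8.78-fold higher against 3 counts over the group (adjusted p = 0.0042). Wfdc3, of a whey acidic protein family inhibitor, went from 0.791, 0.218 and 0.23 CPM to 5.41, 8.10 and 4.01 CPM (3.89 ± 0.65, adjusted p = 0.0018), and Akr1c19, an aldo-keto reductase gene, from 0.158, 0.327 and 0.46 CPM to 4.15, 4.97 and 3.01 CPM (3.56 ± 0.37, adjusted p = 0.00019). With C7 and Chil4 these kept their calls without each library. The other 5 did not: Krt19, Thrsp, Cyp2e1, Inmt and Mup13 rose by 3.67 to 4.16 and lost their calls without 3 to 6 of the 6 libraries. For Krt19, a keratin of simple and follicular epithelium, the levels at day 28 were 36.8, 2.98 and 2.38 CPM, and without replicate 1 of that day the adjusted p was 0.36. When only the 2 groups were fitted Krt19 (adjusted p = 0.131), Thrsp (0.127) and Cyp2e1 (0.0865) lost their calls, with no filter on low counts Krt19 (0.0716) and Thrsp (0.0638), with the 12 grafts of lane 1 Krt19 (0.0793) and Thrsp (0.068), and with the replicate block Krt19 (0.0922). Thrsp, a fat synthesis gene, was likewise highest in that library (68.4, 6.96 and 7.02 CPM; 0.272 without it). Without 1 library the adjusted p reached 0.113 for Cyp2e1 (replicate 1 of day 28), 0.0705 for Inmt (replicate 2 of day 14) and 0.118 for Mup13 (replicate 2 of day 14).

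CD1dKOxE7 grafts changed differently from E7 grafts between the days: the difference of day changes was called higher in E7 grafts for 6.31% of all genes tested and lower for 6.54%. Lane and donor cannot be told apart here. Each day change was taken within a lane, so that a lane shift shared by both days drops out of the difference but not out of the levels. Replicate 3 of the CD1dKOxE7 grafts at day 28 lay at -25.5 on the third principal component of the 18 grafts, between the C57 grafts of day 28 (-19.8 to -22.3) and the CD1dKOxE7 grafts of day 14 (-33.7 to -42.6), while replicates 1 and 2 lay at 22.1 and 22.9. On the second it lay at -32.0, and the other day 28 libraries of E7 and CD1dKOxE7 grafts lay at -34.0 and below. Without it 1984 genes were called higher and 1972 lower, against 1021 and 1059 with it. Called higher here means a higher day change, not a higher level. In the T cell list the day change was higher in E7 grafts for 15 of 18 genes (16 without that library, 10 when only the 4 groups were fitted). The summed level of that list went from 731 to 833 CPM down to 160 to 345 CPM in CD1dKOxE7 grafts (median -1.65), and was 129 to 158 CPM in the 6 E7 grafts, where no T cell gene was called. In the cytotoxic list the count was 12 of 17 (14 and 9), with a median of -1.88 in CD1dKOxE7 grafts. In antigen presentation it was 17 of 18 (18 and 17), with sums of 15230 to 18400 CPM at day 14 and 10330 to 13900 CPM at day 28 in CD1dKOxE7 grafts, above the 9432 to 9727 CPM of E7 grafts at day 28. H2-Aa differed by 1.56 (adjusted p = 0.0036; 1.84 without that library) and Cd3e by 2.03 (adjusted p = 0.0168; 2.70 without it).

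The cornified envelope and DNA replication lists had members called the other way. In the cornified envelope list the day change was lower in E7 grafts for 16 of 25 genes (17 without replicate 3 of day 28 of the CD1dKOxE7 grafts, 16 when only the 4 groups were fitted), with a median of 0.62 in CD1dKOxE7 grafts. In DNA replication it was lower for 19 of 29 (26 and 12), with a median of 0.38 in CD1dKOxE7 grafts. Mki67 differed by -0.94 ± 0.22 (adjusted p = 0.0126): it fell in E7 grafts and was not called in CD1dKOxE7 grafts (0.35 ± 0.16, adjusted p = 0.122). Nmu, of the peptide neuromedin U, fell in E7 grafts from 17.7, 18.4 and 11.6 CPM to 4.02, 4.55 and 3.39 CPM, and rose in CD1dKOxE7 grafts from 0.852 CPM (mean) to 9.29, 10.1 and 4.49 CPM (difference -5.18 ± 0.44, adjusted p = 5.38e-05). Spink7, a protease inhibitor gene of squamous epithelium, fell in E7 grafts from 169, 137 and 70.6 CPM to 7.29, 9.23 and 4.77 CPM and rose in CD1dKOxE7 grafts (difference -5.96 ± 0.62, adjusted p = 0.00022). Hair shaft genes fell in both (median -3.32 in CD1dKOxE7 grafts), and none of them differed between these donors.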

How the data were processed

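Per the submitters' processing notes graft reads passed FastQC and Trimmomatic and were placed on mm10; the aligner, counter, annotation and strand are not given in the sources used here. Without strand, counts of antisense or overlapping genes, and of near-identical families, are uncertain. The authors deposited raw counts per Entrez gene, 27180 rows for each of 24 libraries; 25275 rows matched RefSeq (GRCm38.p6) and took its symbol. Graft libraries held 6550011 to 11069475 counts.

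The 18 graft libraries were fitted together with edgeR 4.0.16 in R 4.3.3 (limma 3.58.1): filterByExpr (minimum count 10, total 15), TMM, robust quasi-likelihood F test, Benjamini-Hochberg adjustment over 16189 genes, threshold 0.05. SE is the absolute log2 fold change over the square root of F. Differences between donors are interaction contrasts in this fit. On simulated counts the E7 day test recovered 87 of 100 2-fold and 98 of 100 4-fold changes. The changed genes were drawn from those not low in level, and all other genes were left level. Of the genes left level 7 were called, 3.65% of the calls. Changes in genes of low level, far more numerous changes and the differences between donors were not simulated. Groups came from titles; "dpg" was read as days after grafting.

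The members, the 44 gene lists and the tests were chosen with earlier results of these data known. Named by rule were a panel (E7, Mki67, Krt6a, Krt16, Cd1d1, Ifng, Arg1, Ido1); the 10 largest rises and falls called with no overlap and at least 1 CPM; each list's lead gene and up to 4 members by smallest adjusted p; and the 6 largest differences from each donor per direction. Others were named after their values were seen, among them Klk6, Slc5a8, Prss27, Birc5, Msx2, Hoxc13, Sox9, Lhx2, Cd34 and the gene families.

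Alternatives were RLE and upper quartile scaling, other count filters, DESeq2 1.42.0, a fold limit, fewer groups in the fit, the replicate block and leaving out each library. Figures used Python 3.11.15 and matplotlib 3.10.9.

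Values of a few genes are not reported here.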

Additional observations from a re-analysis of the deposited data

Results flagged for a closer look

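The results below stand here because the change between day 14 and day 28 differed between E7 grafts and another donor in the test of the difference itself (edgeR interaction term, adjusted over all genes tested); values are log2 differences, E7 grafts minus the other donor, ± SE. Against C57 grafts the day change was higher in E7 grafts for Ccl1 (5.54 ± 0.98), Stfa2 (4.01 ± 0.71), Krt16 (3.88 ± 0.41), Cstdc5 (3.66 ± 0.49), Cstdc6 (3.63 ± 0.56) and Lpo (3.46 ± 0.53). It was lower for Btc (-2.27 ± 0.26), Elovl1 (-0.70 ± 0.13) and Ralgapa2 (-0.61 ± 0.11). Krt16, Cstdc5 and Btc kept this call without each of the 12 libraries.

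Against CD1dKOxE7 grafts, which were on another lane, the day change was higher in E7 grafts for Ccl1 (6.87 ± 0.75), Krt19 (6.00 ± 1.72), Reg3g (4.74 ± 1.41), Mybpc2 (4.15 ± 1.23), Trbv19 (4.11 ± 1.02) and Lcn2 (3.99 ± 0.83). Single libraries ended the calls of Krt19 (adjusted p up to 0.136), Reg3g (0.654 without replicate 3 of the E7 grafts at day 28), Mybpc2 (0.121) and Trbv19 (0.0565). It was lower for Spink7 (-5.96 ± 0.62), Krt2 (-5.74 ± 1.35), Nmu (-5.18 ± 0.44), Ereg (-3.61 ± 0.47), Lrrc31 (-3.20 ± 0.82), Rgn (-3.19 ± 0.41) and Mki67 (-0.94 ± 0.22). These 7 kept the call without each of the 12 libraries, and Krt2 lost it with the replicate block (adjusted p = 0.0585).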

How the results depend on the processing

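Of 148 named genes that were called, 81 kept the call without each E7 library in turn. Their 2065 values under all alternatives had the direction reported, and 326 of them were no longer past the threshold. In E7 grafts 321 genes rose and 363 fell with a log2 fold change of at least 1, and leaving out 1 library gave 481 to 1259 that rose and 730 to 1494 that fell. Against C57 grafts the number called higher was 15 with no filter on low counts, 85 with DESeq2 and 15 with a log2 limit of 1 (10 to 55 without 1 library). The number called lower was 67 with DESeq2, 23 when only the groups compared or the 12 grafts of lane 1 were fitted and 1 with the log2 limit (1 to 17 without 1 library). Against CD1dKOxE7 grafts 661 were called higher and 653 lower when only those groups were fitted, and 562 and 261 with the log2 limit. Without 1 library these numbers ran from 514 to 1984 and from 575 to 1972. The cause of these shifts was not tested, except that a log2 limit counts fewer genes by its construction.

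The labels do not say whether replicate numbers pair the libraries. Deviations from the group means of same-numbered libraries of day 14 and day 28 correlated at -0.129, 0.00188 and -0.103. Means of 3 libraries constrain these deviations, so the values cannot decide whether the libraries are paired. With the replicate block 1137 genes rose and 1304 fell, 22 and 2 were called higher and lower than in C57 grafts, and 1058 and 884 than in CD1dKOxE7 grafts. With 3 libraries a group, genes under about 1 CPM rest on a few counts, and their changes have wide errors.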

Other observations

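Skint genes, which encode butyrophilin-like proteins of the epidermis and thymus that shape the epidermal gamma delta T cells of the mouse, were higher at day 28: 10 of 11 tested rose (median 1.14, against 0.641 in C57 grafts). Skint4 stood at 18.0, 20.0 and 19.3 CPM and at 43.0, 43.5 and 46.0 CPM (1.21 ± 0.13, edgeR adjusted p = 0.00019). Skint7 went from 2.21, 3.82 and 6.90 CPM to 32.3, 29.4 and 23.0 CPM (2.67 ± 0.32, adjusted p = 0.0005). Skint11 was not called (adjusted p = 0.0505). The family was chosen after its values were seen, and reads of near-identical copies may be split among them.

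Of 3 Gsdmc genes, which encode pore-forming gasdermins, 2 rose. Gsdmc2 stood at 1.42, 1.96 and 22.0 CPM and at 33.1, 56.96 and 71.0 CPM, replicate 3 of day 14 being the high library of its day. Its call (2.62 ± 0.70, adjusted p = 0.0214) was lost without replicate 1 or 2 of day 14 or replicate 2 or 3 of day 28 (adjusted p up to 0.0743) and when only the 2 groups were fitted (0.134). Of 11 Mup genes, which encode carriers of small pheromones, 4 rose (median 2.23).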
